A study of Homo sapiens with 36 samples.

Results

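The Schlafen genes are a small human family that lies in a cluster on chromosome 17. Bulk RNA counts for 5 of them, SLFN5, SLFN11, SLFN12, SLFN12L and SLFN13, were taken by gene name from a table of 36601 genes. They were chosen because SLFN11 is on in 1 of the study's 2 cell clones and close to 0 in the other. The differences of these 5 genes between the clones are therefore given as a description with no test, and only their responses to the ligand were tested. Other genes, which that choice did not use, were also tested between the clones.

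The 12 libraries come from HEK293, a standard human cell line of embryonic kidney origin. All carry a HaloTag, a protein tag that binds its ligands covalently, and there are 4 groups of 3 libraries: clones 5 and 4, each given either HyT36 or DMSO. HyT36 is a hydrophobic HaloTag ligand used at 25 µM, and DMSO is its vehicle. Each line is 1 clone, so an effect of a tagged protein cannot be told apart from other differences between the pair of clones. The labels give neither the protein that is tagged in a clone nor which of the 2 h and 12 h exposures in the protocols these cultures had. The other 24 samples of the series were not analysed here.

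Schlafen proteins share an N-terminal core, which can cleave RNA in several members, and the longer members add a C-terminal part that resembles a helicase. SLFN11 binds stressed replication forks, blocks their progress and cleaves transfer RNAs, and cells that make it are more sensitive to drugs that damage DNA or stall replication. Many members of the family are induced by interferon. The parental HEK293 line is known to express SLFN11, and its derivative 293T is known to lack it.

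The promoters of the gene that separates the clones and of a pair of its neighbours in the cluster that were low or undetected in both clones are shown for comparison. Each sequence is the 250 bases before the annotated start, 5′ to 3′ on the gene's strand, with CG dinucleotides in capitals. They are RefSeq reference sequence on GRCh38.p14, which held a promoter for 3 of the 5 genes. All 3 genes lie on the minus strand.
SLFN11, chr17:35373622-35373871: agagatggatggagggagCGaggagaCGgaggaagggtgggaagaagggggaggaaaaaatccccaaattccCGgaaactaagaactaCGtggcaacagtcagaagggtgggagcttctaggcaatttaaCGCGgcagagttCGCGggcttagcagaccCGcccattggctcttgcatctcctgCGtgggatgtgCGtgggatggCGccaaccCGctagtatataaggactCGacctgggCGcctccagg
SLFN12, chr17:35433175-35433424: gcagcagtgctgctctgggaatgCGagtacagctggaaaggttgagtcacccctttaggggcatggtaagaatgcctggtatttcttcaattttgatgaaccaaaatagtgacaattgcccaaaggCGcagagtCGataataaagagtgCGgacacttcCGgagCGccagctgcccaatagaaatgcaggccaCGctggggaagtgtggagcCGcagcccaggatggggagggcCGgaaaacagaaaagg
SLFN12L, chr17:35537679-35537928: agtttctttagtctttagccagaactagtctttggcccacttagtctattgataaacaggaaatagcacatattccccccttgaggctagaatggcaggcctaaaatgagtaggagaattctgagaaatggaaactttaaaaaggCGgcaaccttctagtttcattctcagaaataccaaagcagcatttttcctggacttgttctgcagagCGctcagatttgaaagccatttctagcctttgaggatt

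The SLFN11 window holds 15 CG dinucleotides and is 57.6% G or C. Of 27305 promoters of the same length, 42.7% hold at least as many, and the median is 11. The SLFN12 window holds 9 CG, a number reached by 53.8% of promoters, and the SLFN12L window holds 2, reached by 84.6%. GGAA, the core letters of ETS factor motifs, was counted on both strands, with matches 5 in SLFN11, 5 in SLFN12 and 4 in SLFN12L. At least 5 matches occur in 18.8% of promoters, and 92.8% hold at least 1. GAAANNGAA, part of an interferon response element and able to overlap GGAA, matched 1 time in SLFN12L and 0 times in SLFN11 and SLFN12, and 7.06% of promoters hold it. TATAA occurs in the SLFN11 window 29 bases before the start, and 19.6% of promoters hold it on either strand. These matches are descriptions of the letters and not of bound sites.

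Gene counts per library ranged from 22853946 to 28635511. Levels below are CPM, the share of a library's gene counts, scaled by the trimmed mean of M-values (TMM), as mean ± SD over 3 libraries. Transcript lengths were not used, so levels are compared between samples and not between genes. Of the HEK293 line markers, VIM, LIN28B, IGF2BP1 and PAX2 had reads, NEFL and NEFM were near 0, and the summed level of all 6 was 640 to 673 CPM (HyT36) and 663 to 689 CPM (DMSO) in clone 5, and 759 to 787 CPM (HyT36) and 787 to 801 CPM (DMSO) in clone 4. The 10 immune cell markers summed to between 1.35 and 4.65 CPM in a library, with CD3E and MS4A1 at 0 reads throughout. The sum of the 10 epithelial markers stood apart in 6 libraries, at 50.9 to 102 CPM, against 3.79 to 6.24 CPM in the other 6. The higher 6 are the 3 of clone 5 with DMSO, replicates 2 and 3 of clone 4 with HyT36 and replicate 1 of clone 4 with DMSO. In clone 5 the epithelial transcripts therefore cannot be told apart from the ligand. KRT19 was the largest part of the sum in clone 5 with DMSO, at 41.4 CPM, against 0.128 CPM with HyT36. Not every marker followed the split: CDH1 was at 0.531 CPM in clone 5 with DMSO and 0.540 CPM with HyT36.

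SLFN11 was abundant in both groups of clone 5 and nearly absent in both groups of clone 4. Its reads were 1720, 1712 and 1655 in clone 5 with HyT36 and 1683, 2012 and 2032 in clone 5 with DMSO. In clone 4 they were 5, 0 and 7 with HyT36 and 4, 4 and 4 with DMSO. Every library of clone 5 lay far above every library of clone 4.

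On the CPM scale SLFN11 was at 72.0, 74.4 and 70.2 in clone 5 with HyT36 (mean 72.2 ± 2.06, SD, n = 3) and at 70.1, 74.0 and 74.1 in clone 5 with DMSO (72.7 ± 2.27, SD, n = 3). It was at 0.180, 0 and 0.269 CPM in clone 4 with HyT36 (0.150 ± 0.137) and at 0.169, 0.157 and 0.166 CPM in clone 4 with DMSO (0.164 ± 0.00647). In order of level the groups were DMSO and HyT36 of clone 5, then DMSO and HyT36 of clone 4, and only the step between the clones exceeded the spread of the libraries. With HyT36, 5087 reads in clone 5 stood against 12 in clone 4, a depth-scaled ratio of 486 with an exact 95% binomial interval of 278 to 940. With DMSO, 5727 reads in clone 5 stood against 12 in clone 4, a ratio of 444 (254 to 860). The fitted log2 value was 8.88 with HyT36 and 8.75 with DMSO, and without clone 4 HyT36 replicate 3 the HyT36 value was 9.56. The binomial intervals cover counting error only. No SE is printed for the fitted values, because the interval it gives was narrower than counting error alone.

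**Figure D1:**
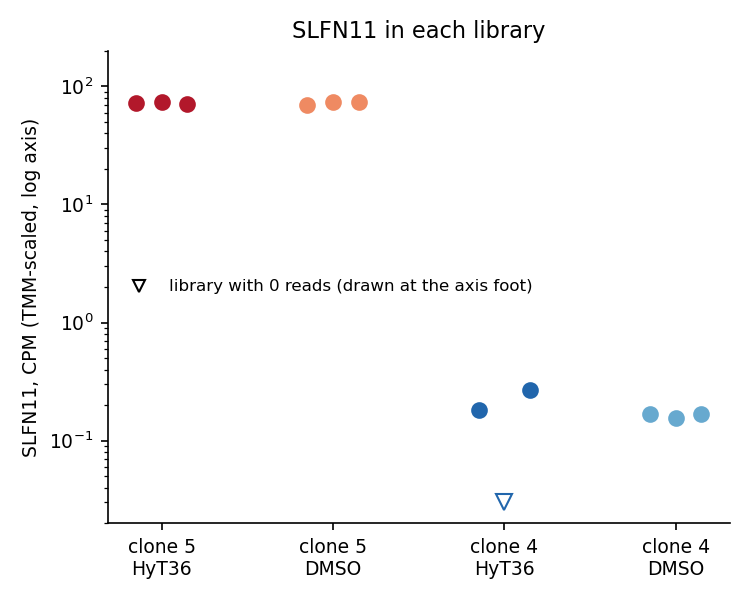
SLFN11 in each of the 12 libraries, as TMM-scaled CPM on a log axis, with 1 point per library and an open triangle at the axis foot for a library with 0 reads. The 6 libraries of clone 5 sit between 70.1 and 74.4 CPM, and the 6 of clone 4 sit between 0 and 0.269 CPM.

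The few SLFN11 reads of clone 4 are a small, similar share of its level in clone 5 in both states, 0.208% with HyT36 and 0.226% with DMSO. For the 5 genes most like SLFN11, named below, this share ran from 0.0867% (SLCO1B3 with HyT36) to 1.11% (PROM1 with DMSO). A guide named for IGF1R, which marks clone 5, also had 5 to 13 reads in each clone 4 library, or 0.275% of its clone 5 level with HyT36 and 0.235% with DMSO. The reverse was seen for the guide named for HDAC2, which marks clone 4 and stood in clone 5 at 0.191% of its clone 4 level with HyT36 and 0.566% with DMSO. The part of such reads in the SLFN11 reads of clone 4 was not tested. In bulk libraries, fewer cells with SLFN11 and less SLFN11 RNA per cell cannot be told apart. No guide of the deposited table is named for a Schlafen gene (0 of 22344 guide features).

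SLFN13, an endoribonuclease that cleaves transfer and ribosomal RNAs, also had reads mainly in clone 5, at a low level. Its reads were 19, 21 and 27 in clone 5 with HyT36 and 22, 42 and 31 in clone 5 with DMSO. In clone 4 they were 1, 0 and 1 with HyT36 and 3, 0 and 0 with DMSO. The 2 clones did not overlap in either state. Among all genes tested, 27.0% were called higher in clone 5 with HyT36 and 27.3% with DMSO. Those are calls by the test, and the share of all genes without overlap was not computed.

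The mean level of SLFN13 in clone 5 was 0.951 ± 0.179 CPM with HyT36 and 1.20 ± 0.320 CPM with DMSO (SD, n = 3 each). With HyT36, 67 reads in clone 5 stood against 2 in clone 4, a depth-scaled ratio of 38.4 (95% interval 10.2 to 323). With DMSO, 95 reads in clone 5 stood against 3 in clone 4, a ratio of 29.5 (9.78 to 145). All 3 clone 4 reads with DMSO are in replicate 1. The fitted log2 value with DMSO was 4.71, and without that library it was 7.94, a value that depends on the prior count because clone 4 then has 0 reads. Among libraries with many epithelial transcripts it was 3.20, again against that 1 library.

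SLFN5, a nuclear member of the family that is known as an interferon-induced regulator of transcription and as a restriction factor of herpes simplex virus, was detected in every library. It was at 3.77, 4.47 and 3.95 CPM in clone 5 with HyT36 (4.06 ± 0.367, SD, n = 3) and at 5.12, 4.42 and 4.30 CPM in clone 5 with DMSO (4.61 ± 0.446). In clone 4 it was at 1.95, 2.52 and 2.43 CPM with HyT36 (2.30 ± 0.306) and at 2.88, 0.942 and 1.58 CPM with DMSO (1.80 ± 0.986). Clone 5 lay above clone 4 with no overlap in either state. Of all genes tested, 27.0% were called higher in clone 5 with HyT36 and 27.3% with DMSO. As for SLFN13, these are calls by the test and not a share of genes without overlap. The fitted difference, clone 5 over clone 4, was a log2 value of 0.82 ± 0.24 (SE) with HyT36, or 1.77-fold, and 1.36 ± 0.25 with DMSO, or 2.57-fold. All 3 clone 5 libraries with DMSO have many epithelial transcripts, and against the 1 clone 4 DMSO library that also does the value was 0.68.

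SLFN12, a shorter member that lacks the helicase-like part and is an RNase activated when small molecules join it to the phosphodiesterase PDE3A, was low in both clones. Its reads were 11, 5 and 3 in clone 5 with HyT36 and 26, 13 and 15 in clone 5 with DMSO. They were 15, 9 and 5 in clone 4 with HyT36 and 15, 6 and 4 in clone 4 with DMSO. The clones overlapped in both states, so SLFN12 did not share the pattern of SLFN11 and SLFN13.

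The mean level of SLFN12 in clone 5 was 0.268 ± 0.172 CPM with HyT36 and 0.703 ± 0.331 CPM with DMSO (SD, n = 3 each). In clone 4 it was 0.356 ± 0.175 CPM with HyT36 and 0.346 ± 0.253 CPM with DMSO. Clone 5 over clone 4 was a log2 value of -0.40 ± 0.57 (SE) with HyT36 and 1.01 ± 0.50 with DMSO. With DMSO it was 0.57 without clone 5 replicate 1 and 1.75 without clone 4 replicate 1, and 0.13 among libraries with many epithelial transcripts. With HyT36 it was -1.03 without clone 5 replicate 1 and 0.027 without clone 4 replicate 1. PDE3A itself had at most 14 reads in a library and was not tested.

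**Figure D2:**
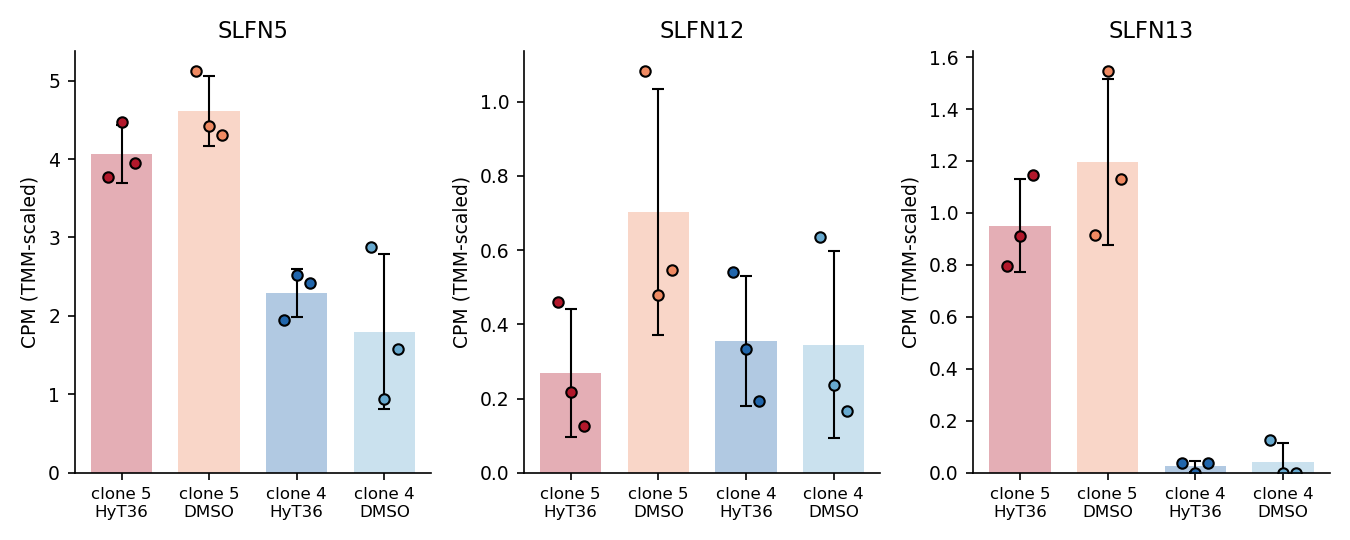
SLFN5, SLFN12 and SLFN13 in each library as TMM-scaled CPM on linear axes that differ between panels, with bars for the mean of 3 libraries, whiskers for the SD and points for the libraries. SLFN5 and SLFN13 separate clone 5 from clone 4, and the points of SLFN12 overlap between the clones.

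SLFN12L had 0 reads in all 12 libraries. A count of 0 allows up to 3 reads, or 0.108 to 0.130 CPM depending on the library. SLFN14, a ribosome-associated endoribonuclease of platelets and red cell precursors that lies beside SLFN12L, also had 0 reads throughout. SLFNL1, a distant relative outside the cluster, had 2 to 11 reads per library and was not tested.

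The ligand response was tested with edgeR's quasi-likelihood F-test, Benjamini-Hochberg adjusted over 14892 genes, and 4 of the 5 Schlafen genes had enough reads to enter. In clone 5, 0 of the 4 passed the threshold of 0.05, against 8.19% of all genes tested. In clone 4, 0 of the 4 passed, against 5.57% of all genes. SLFN11 and SLFN13 had enough reads to enter only through clone 5, so with 12 and 12 reads and with 2 and 3 reads their clone 4 responses, and the differences that use them, could hardly pass. For the clone 5 response minus the clone 4 response, 0 of the 4 passed, against 0.302%. By direction, 3.35% of all genes rose and 4.83% fell in clone 5, 2.21% rose and 3.36% fell in clone 4, and the difference was positive for 0.128% and negative for 0.175%. DESeq2 and limma-voom also called 0 in each of the 3 comparisons. DESeq2 gave no adjusted p for SLFN12 and SLFN13 in either ligand response, so it could not call them there. At an unadjusted p under 0.05, each of the 3 tools counted 1 in clone 5, which was SLFN12, and 0 in clone 4 and in the difference of the responses.

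SLFN11 in clone 5 is the most closely measured of these responses. HyT36 over DMSO was a log2 value of -0.01 ± 0.06 (SE), or 0.992-fold, with an approximate 95% interval of 0.908 to 1.08-fold (edgeR adjusted p = 0.95). In clone 4, 12 reads with HyT36 stood against 12 reads with DMSO, a depth-scaled ratio of 0.906 (0.372 to 2.21), and the fitted log2 value was -0.14 (edgeR adjusted p = 0.94). The difference of the responses was 0.13 on the log2 scale (edgeR adjusted p = 0.98).

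SLFN12 had the response farthest from 0 among these genes in clone 5, and it did not pass. HyT36 over DMSO was a log2 value of -1.35 ± 0.52 (SE), or 0.391-fold, with an interval of -2.41 to -0.29 (edgeR adjusted p = 0.11). It rested on 19 reads with HyT36 and 54 reads with DMSO. The HyT36 libraries were all below the DMSO libraries by a small gap, from at most 0.460 CPM to at least 0.478 CPM. The share of all genes that separate in this way was not computed. A fit of clone 5 alone gave an edgeR adjusted p of 0.0499, just past the threshold, and over all alternatives that gave a value the adjusted p ranged from 0.0499 to 0.49. In clone 4 the log2 value was 0.06 ± 0.54 (edgeR adjusted p = 0.97). The difference between the clones was -1.41 ± 0.76 on the log2 scale (edgeR adjusted p = 0.65).

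SLFN5 changed by a log2 value of -0.18 ± 0.23 (SE) in clone 5, with an interval of -0.65 to 0.29 (edgeR adjusted p = 0.73). In clone 4 the value was 0.36 ± 0.26, with an interval of -0.18 to 0.90 (edgeR adjusted p = 0.50). That value depends on 1 library: without clone 4 DMSO replicate 1, whose level of 2.88 CPM is above the other DMSO libraries of that clone, it was 0.87 (edgeR adjusted p = 0.016) and passed. The difference between the responses was -0.54 ± 0.34 (edgeR adjusted p = 0.73). SLFN13 changed by -0.34 ± 0.38 in clone 5, with an interval of -1.10 to 0.43 (edgeR adjusted p = 0.69), and its 2 reads with HyT36 and 3 reads with DMSO in clone 4 give a ratio of 0.604 (0.0505 to 5.27). Its difference between the responses was 0.30 on the log2 scale (edgeR adjusted p = 0.98).

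**Figure D3:**
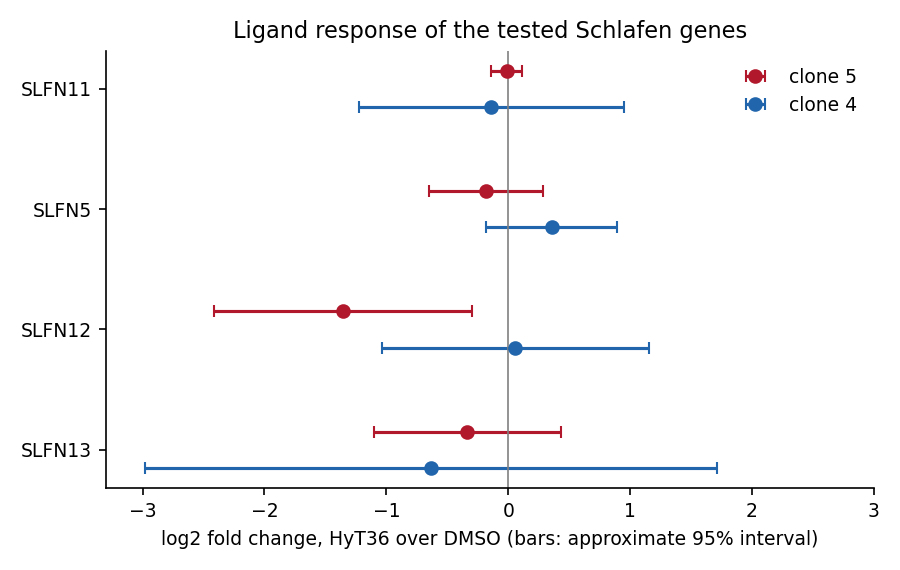
Fitted log2 fold change, HyT36 over DMSO, of the 4 tested Schlafen genes in clone 5 and clone 4, with points for the edgeR estimate and bars for the approximate 95% interval. The interval of SLFN11 in clone 5 is narrow around 0, that of SLFN12 in clone 5 lies below 0 before adjustment, and the other intervals cross 0. The clone 4 bars of SLFN11 and SLFN13 are narrower than counting error alone.

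The epithelial transcripts moved with some of these values. In clone 5, where the 3 DMSO libraries are the ones with many epithelial transcripts, SLFN12 and the epithelial sum were both lower with HyT36. The epithelial sum was 4.34 to 6.24 CPM with HyT36 and 50.9 to 70.6 CPM with DMSO. Of the 10 markers, ESRP1, a splicing regulator of epithelial cells, passed in clone 5, where it fell by 1.84 ± 0.43 (SE) on the log2 scale (edgeR adjusted p = 0.015), and DESeq2 called 3 and limma-voom 2. In clone 4 the split crosses the ligand, and SLFN5 was 2.43 to 2.88 CPM in the 3 libraries with many epithelial transcripts, against 0.942 to 1.95 CPM in the 3 with few. The share of all genes that separate along this split was not computed, so the separation may not be particular to SLFN5. Clone 4 DMSO replicate 1, which moves the SLFN5 response, is the DMSO library with many. The part of the epithelial transcripts in the SLFN5 and SLFN12 values was not tested. SLFN12 in clone 4 was 0.192 to 0.635 CPM with many and 0.166 to 0.541 CPM with few, ranges that overlap. SLFN11 was low in clone 4 on both sides of the split, at 0 to 0.269 CPM with many and 0.157 to 0.180 CPM with few.

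**Figure D4:**
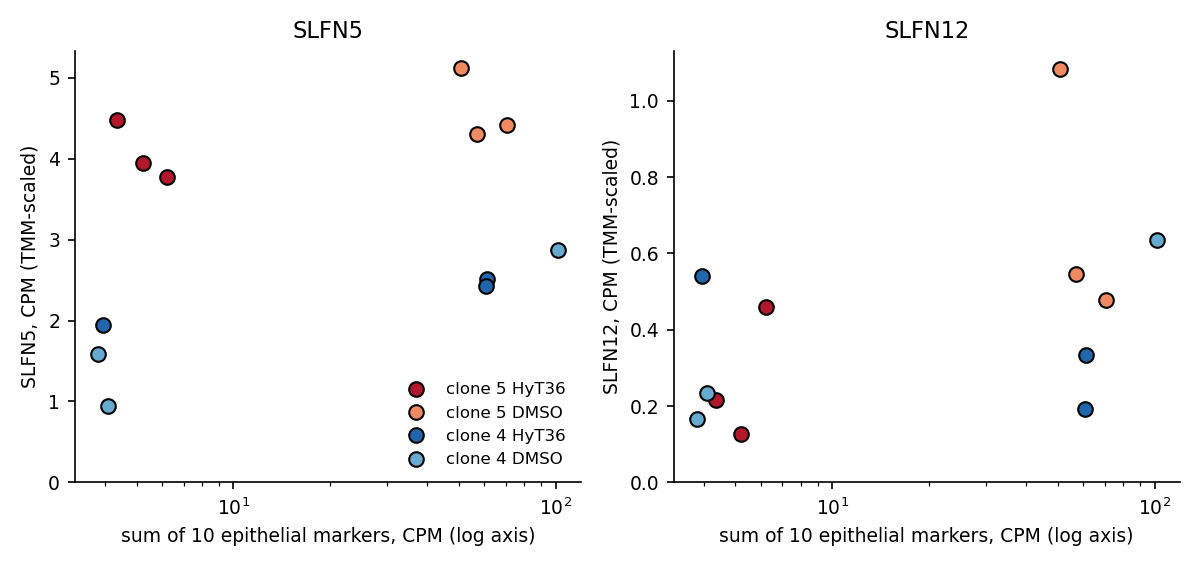
SLFN5 and SLFN12, as TMM-scaled CPM, against the summed CPM of 10 epithelial markers on a log axis, with 1 point per library coloured by group. The 6 libraries on the right hold 50.9 to 102 CPM of these markers, and the 6 on the left hold 3.79 to 6.24 CPM.

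The Schlafen genes span 317.7 kb of chromosome 17 on GRCh38.p14, in RefSeq coordinates. SLFN5 lies at 35243072 to 35273655, SLFN11 at 35350305 to 35373621, SLFN12 at 35410922 to 35433174, SLFN13 at 35435096 to 35449766, SLFN12L at 35464254 to 35537678 and SLFN14 at 35543985 to 35560819. The start of SLFN11 overlaps the non-coding gene LOC105371933, and SLFN5 overlaps LOC105371932. The strand setting of the counts is not given, so reads of these overlapping genes cannot be told apart, and similar Schlafen paralogs may share reads.

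The 10 genes of the table on each side of the cluster were compared between the clones, and 11 of the 20 had enough reads. With HyT36, 7 were higher and 3 lower in clone 5, and 1 did not pass, against 56.0% of all genes tested that passed in either direction. With DMSO, 5 were higher and 3 lower, and 3 did not pass, against 55.5% of all genes. The median log2 difference of the 11 was 0.20 with HyT36 and 0.05 with DMSO, and that of all genes was -0.0047 with HyT36 and 0.0017 with DMSO. Over all genes 27.0% were higher and 28.9% lower in clone 5 with HyT36, and 27.3% were higher and 28.2% lower with DMSO.

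None of the tested neighbours differed between the clones by as much as SLFN11 or SLFN13 in either state. Their range was -1.34 to 1.24 with HyT36 and -1.29 to 1.05 with DMSO on the log2 scale. SLFN5 lay inside that range with HyT36, at 0.82, and above it with DMSO, at 1.36. SLFN12 lay inside it in both states, at -0.40 with HyT36 and 1.01 with DMSO. RASL10B, a RAS-like GTPase gene, stood at 20.01 ± 0.856 CPM in clone 5 with HyT36 and 20.5 ± 1.04 CPM in clone 5 with DMSO, against 50.6 ± 1.20 and 50.3 ± 0.567 CPM in clone 4 (SD, n = 3 each). CCT6B, a chaperonin subunit gene, stood at 2.35 ± 0.120 CPM in clone 5 with HyT36 against 0.993 ± 0.252 CPM in clone 4 with HyT36. Among the expressed neighbours close to the cluster were NLE1, a ribosome assembly gene that differed by -0.09 ± 0.05 (SE) with HyT36 and -0.11 ± 0.05 with DMSO, neither of which passed, and the non-coding SNHG30, which differed by 0.44 ± 0.08 and 0.32 ± 0.08. AP2B1, an endocytic adaptor subunit gene, was lower in clone 5 by 0.15 ± 0.04 with HyT36.

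**Figure D5:**
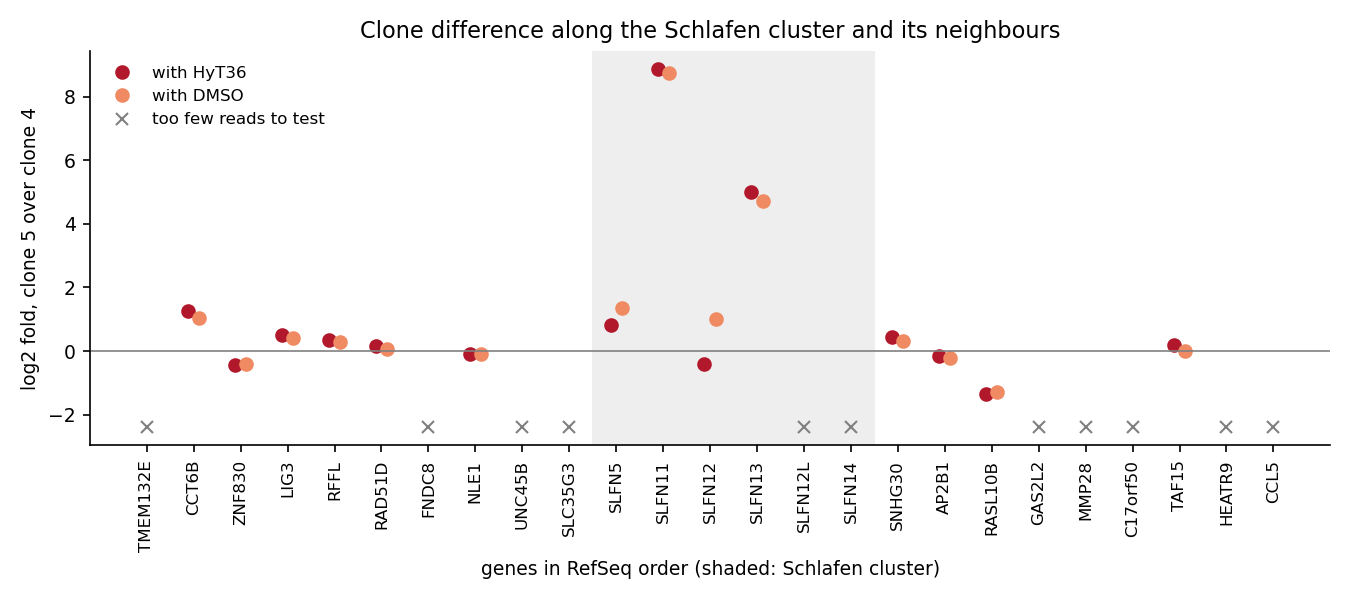
Log2 fold difference, clone 5 over clone 4, for the genes in and around the Schlafen cluster in RefSeq order, with HyT36 in dark red and DMSO in orange, and crosses for genes with too few reads. SLFN11 and SLFN13 stand far above the axis, and the 10 tested neighbours drawn lie between -1.34 and 1.24.

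The 5 genes whose profile over the 12 libraries was most like that of SLFN11 lie on other chromosomes. Likeness was the root mean square difference of log2 CPM after each gene's mean was subtracted, so low values are alike. They were SYK, a tyrosine kinase of immune receptor signalling, at 1.20, SLCO1B3, an organic anion transporter, at 1.36, SLC5A12, a lactate transporter, at 1.37, PROM1, which encodes the surface protein CD133, at 1.46, and CHFR, a mitotic checkpoint ubiquitin ligase, at 1.52. SLFN13 ranked 37th, SLFN5 942nd and SLFN12 4847th of 14891 genes. SYK was at 94.1 CPM in clone 5 with HyT36, 96.8 in clone 5 with DMSO, 0.435 in clone 4 with HyT36 and 0.285 in clone 4 with DMSO. CHFR was at 38.5 CPM in both groups of clone 5, against 0.300 CPM in clone 4 with HyT36 and 0.402 CPM in clone 4 with DMSO. Being high in clone 5 and near 0 in clone 4 was thus not limited to the Schlafen cluster.

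Interferon signalling genes are background to the family, since interferons induce many of its members. In clone 5, 0 of 14 passed the ligand test by edgeR, by DESeq2 and by limma-voom, against 8.19% of all genes by edgeR, with 2 at an unadjusted edgeR p under 0.05. In clone 4, 1 of 14 rose, against 2.21% of all genes. It was IFNGR2, a chain of the interferon gamma receptor, by 0.34 ± 0.09 (SE) on the log2 scale (edgeR adjusted p = 0.015). Between the clones with HyT36, 4 were higher and 3 lower in clone 5, and with DMSO 6 were higher and 4 lower, against 56.0% of all genes called with HyT36 and 55.5% with DMSO. IRF2, a repressor of interferon responses, was higher in clone 5 by 0.71 ± 0.13 with HyT36 and 0.80 ± 0.14 with DMSO (edgeR adjusted p = 1.5e-05 and 4.4e-06). IRF7, an inducer of interferon genes, was lower by 0.73 and 0.50 on the same scale.

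Among 40 interferon-stimulated genes, 37 had enough reads. IFIT5, an RNA-binding antiviral protein, was the only one that passed by edgeR in the ligand responses (DESeq2 called 2 in clone 5), and it fell in both, by 0.23 ± 0.07 in clone 5 and 0.24 ± 0.07 in clone 4 (edgeR adjusted p = 0.024 and 0.035). Between the clones with HyT36, 10 were higher and 4 lower in clone 5, and with DMSO 9 were higher and 4 lower, of 37 tested, against 56.0% of all genes called with HyT36 and 55.5% with DMSO. The median log2 difference was 0.11 with HyT36 and 0.03 with DMSO. CMPK2, a mitochondrial nucleotide kinase, was higher in clone 5 by 1.70 ± 0.33 with HyT36 and 1.87 ± 0.34 with DMSO, and HERC5, the ligase for ISG15, by 1.63 ± 0.08 and 1.503 ± 0.08. BST2, or tetherin, which holds budding virus at the cell surface, was lower by 1.69 and 1.49.

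Of 16 regulators of transcription and chromatin named for SLFN11, 15 had enough reads, and FLI1, an ETS factor, had at most 2 reads in a library. In clone 5, 0 of the 15 passed the ligand test by edgeR and limma-voom and 2 by DESeq2, with 5 at an unadjusted edgeR p under 0.05. In clone 4, 0 passed by all 3 tools, with 1 at an unadjusted edgeR p under 0.05. Between the clones with HyT36, 3 were higher and 5 lower in clone 5, and with DMSO 3 were higher and 6 lower, of 15 tested, against 56.0% of all genes called with HyT36 and 55.5% with DMSO. ETS1, an ETS factor, was higher in clone 5 by 0.44 ± 0.06 with HyT36 and 0.39 ± 0.06 with DMSO. HDAC2, a histone deacetylase, was higher by 0.51 ± 0.04 and 0.53 ± 0.04, and its guide is the one that marks clone 4. EHMT2, a histone H3 lysine methyltransferase, was lower by 0.54 and 0.58, and EZH2, the catalytic subunit of Polycomb repressive complex, was lower by 0.23 and 0.27.

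The replication stress and fork genes, which act where SLFN11 is known to act, gave small changes with the ligand. In clone 5, 1 of 25 rose and 4 fell, against 3.35% and 4.83% of all genes. In clone 4, 2 rose and 2 fell, against 2.21% and 3.36%. RPA2, a subunit of the single-strand DNA binding complex that recruits SLFN11, fell by 0.19 ± 0.04 in clone 5 and 0.19 ± 0.04 in clone 4 (edgeR adjusted p = 0.0021 and 0.0020). CDC25A, a phosphatase that drives entry into S phase, fell by 0.16 and 0.13, and PARP1, a sensor of DNA breaks, rose by 0.12 and 0.11. GMNN, the inhibitor of replication licensing, fell by 0.18 ± 0.04 in clone 5 (edgeR adjusted p = 0.0052), and CDT1, the licensing factor that it binds, rose by 0.22 ± 0.05 in clone 4 (edgeR adjusted p = 0.0045). Between the clones with HyT36, 3 were higher and 11 lower in clone 5, and with DMSO 4 were higher and 11 lower, against 56.0% of all genes called with HyT36 and 55.5% with DMSO. The median log2 difference was -0.07 in both. CHEK1, the checkpoint kinase of stalled forks, was lower in clone 5 by 0.31 ± 0.05 in both states.

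Of 7 genes for proteins that partner with Schlafen proteins, 6 had enough reads. In clone 5, 2 rose with the ligand, against 3.35% of all genes: DDB1, a ubiquitin ligase adaptor, by 0.14 ± 0.04, and DHX9, an RNA helicase, by 0.12 ± 0.04 (edgeR adjusted p = 0.012 and 0.025). In clone 4, 0 passed by edgeR and limma-voom and 1 by DESeq2, with 3 at an unadjusted edgeR p under 0.05. Between the clones with HyT36, 1 was higher and 4 lower in clone 5, and with DMSO 0 were higher and 4 lower, of 6 tested, against 56.0% of all genes called with HyT36 and 55.5% with DMSO. CUL4A, the scaffold of the ligase that DDB1 joins, was lower in clone 5 by 0.31 ± 0.04 with HyT36 and 0.29 ± 0.04 with DMSO. The difference of the ligand responses passed for 0 genes in each of these 5 lists by edgeR, DESeq2 and limma-voom. At an unadjusted edgeR p under 0.05 it counted 4 interferon-stimulated genes, 1 replication gene and 0 in the other 3 lists.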

How the data were processed

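The authors deposited 1 table of raw counts per gene for the 12 bulk RNA libraries, per the file headers. Per the labels' protocols, frozen pellets went to a sequencing service, and polyA libraries were made with a NEBNext Ultra II kit. Per the submitters' processing notes, the study used Cell Ranger 7 and GRCh38, but their role for these libraries is not stated. For the aligner, annotation and strand setting nothing is stated (not given in the sources used here). Genes made up 82.4 to 83.9% of the counts, and 16.1 to 17.6% named no gene. Guide features (0.00831 to 0.0125%) and entries that name no gene entered neither library sizes nor tests.

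The Schlafen genes, the gene lists and the choice of tests were made with earlier results of these data known. Genes named are the Schlafen genes and 2 relatives, the 10 genes on each side of the cluster, up to 4 of each list with the smallest ligand p and up to 4 with the largest clone difference among those called, and the 5 genes most like SLFN11 by CPM with a prior count of 0.5. Not every gene that this rule names is reported here.

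The tests used edgeR 4.0.16 in R 4.3.3 on the counts: filterByExpr by group (14892 genes kept), TMM scaling, 1 fit of 4 group means over the 12 libraries, robust two-sided quasi-likelihood F-tests and a prior count of 0.125. An SE is the size of the log2 fold divided by the square root of F, and intervals follow from it, both approximate. Between the clones, SLFN11 and SLFN13 are given without an SE, since their fitted intervals were narrower than counting error alone. For the same reason no SE is given for their clone 4 responses, nor for the differences of responses that use them. DESeq2 1.42.0 and limma 3.58.1 (voom), other filters and scalings, a replicate block, subsets by epithelial transcripts and leaving out each library were alternatives. The subsets were set at a summed epithelial level of 20 CPM. No label says whether replicates were grown as separate cultures. The p-values therefore reflect the spread between these libraries alone, and that spread may be technical. Chi-square per degree of freedom between replicate libraries lay between 1.92 and 8.31, so none looked like 1 library deposited 2 times. On simulated counts for the clone 5 response over 14737 genes, 77% of 1.5-fold and 88% of 2-fold changes were recovered, and 7.82% of calls were not changed genes. The changed genes were drawn above 1 CPM in clone 5 with DMSO, with a spread set by the trend over all genes. SLFN12 lies below that level, at 0.703 CPM, and SLFN13 is near it, at 1.20 CPM, so these shares do not describe them.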

Additional observations from a re-analysis of the deposited data

How the results depend on the processing

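Of 517 values recomputed for 29 results, 457 stayed the same, 40 moved, 2 passed the threshold that had not, and 18 reversed. For a ligand response, the same meant an unchanged direction and side of the threshold. For a clone difference it meant the same direction and a shift smaller than the SD between libraries. For a count of genes it meant a value within a set fold of the main one. Only the Schlafen log2 values could be labelled reversed, since the other results are counts, and the cause of the reversals was not tested. In libraries with many epithelial transcripts the clone 4 response was -0.22 for SLFN5 and -1.25 for SLFN12, and in libraries with few it was 0.15 for SLFN11 and 3.02 for SLFN13. With no filter SLFN11 in clone 5 was 0.0040, and with limma-voom the SLFN13 difference of responses was -0.30. These subsets gave no clone 5 response and no difference, because in clone 5 the split coincides with the ligand.

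Of 830 genes called in clone 4, the libraries with few epithelial transcripts called 287 (227 shared). A fit of the compared groups alone called 1 Schlafen gene in clone 5 instead of 0. The difference of responses called 45 genes, 169 with no filter (45 shared) and 12 with limma-voom (11 shared).

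Leaving out 1 library gave 409 to 851 genes in clone 4 (lowest without HyT36 replicate 3) and 0 to 1 Schlafen genes, the 1 being SLFN5 without DMSO replicate 1. It gave 755 to 1618 genes in clone 5, against 1219 (lowest without clone 5 DMSO replicate 1), and 25 to 140 for the difference. Both of these highest counts were without clone 4 DMSO replicate 1, where SLFN12 in clone 5 had an edgeR adjusted p of 0.0606. The ranges were -0.81 to 0.44 for SLFN11, -0.37 to 0.81 for SLFN12 and -1.19 to 2.59 for SLFN13 in clone 4, and -0.035 to 0.017 for SLFN11 in clone 5. They were -0.45 to 0.81 for SLFN11 and -2.93 to 0.86 for SLFN13 in the difference, and -1.03 to 0.027 for SLFN12 between clones with HyT36. Between clones with DMSO they were 1.05 to 1.87 for SLFN5, 0.57 to 1.75 for SLFN12 and 4.15 to 7.94 for SLFN13.

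Whether equal replicate numbers pair the libraries is not stated. Deviations of same-numbered libraries correlated at -0.0258, -0.0318 and 0.0116 in clone 5 and at -0.576, -0.277 and -0.287 in clone 4. In clone 4 same-numbered libraries lie on opposite sides of the epithelial split, so these values cannot show whether they were handled together. With a replicate block 1083 genes were called in clone 5 and 715 in clone 4, with 0 Schlafen genes in each, and SLFN12 in clone 5 was -1.42 (adjusted p = 0.0586). Depth limits SLFN12, SLFN13 and SLFN11 in clone 4, which rest on few reads.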
